A study of Homo sapiens with 9 samples.

Results

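The genes that make, sense and move cholesterol and that build fatty acids were followed on Affymetrix expression arrays in Hec50, an established line from a human endometrial cancer. The members were all probe sets whose single gene symbol in the platform's annotation was one of 33 listed sterol and fatty acid genes, which gave 72 of the 54675 probe sets on the array. These 72 stood for 30 of the 19775 genes named by a single symbol, and the other 3 listed genes (CYP51A1, FADS1 and FDFT1) had no probe set under that rule. There were 9 arrays in 3 groups of 3, transfected with a miR-200c mimic, which acts as the microRNA, with a scrambled small RNA as negative control, or mock. Mimic and scrambled control were both used at 60 nM for 48 hours, and the labels give neither a dose nor a time for mock. All groups were grown in DMEM with 10% fetal bovine serum, which itself carries lipids. The study asked which genes respond to miR-200c in this line. Whether replicates were separate cultures is not given in the labels, so the p-values cover the spread of these arrays, which may be no more than technical.

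Cells make cholesterol from acetyl-CoA, first through the mevalonate arm that ends in farnesyl diphosphate and then through squalene and lanosterol. The fatty acid arm starts from the same acetyl-CoA. When sterols in the endoplasmic reticulum run low, SCAP carries the SREBP transcription factors (encoded by SREBF1 and SREBF2) to the Golgi for cleavage, and the cleaved factors raise transcription of both arms. INSIG proteins hold SCAP back when sterols are plentiful. When oxysterols build up, liver X receptors raise the efflux pumps ABCA1 and ABCG1.

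The small RNA that was added and the promoters of 4 members on which the results below turn are given first. The mature strand is from the RefSeq table on GRCh38.p14, where it lies at chr12:6963742-6963764 on the plus strand, and capitals mark its seed, bases 2 to 8, which pairs with target mRNAs.
hsa-miR-200c-3p: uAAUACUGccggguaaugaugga

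Promoter windows of 300 bases, 250 before and 50 after the annotated start, were taken from the RefSeq table on GRCh38.p14. They are shown for STARD4 (chr5:111512486-111512785, minus strand), which was higher with the mimic than in both other groups, for NPC1 (chr18:23586457-23586756, minus strand) and SCD (chr10:100346983-100347282, plus strand), which each had a probe set lower than in both, and for SREBF2 (chr22:41832855-41833154, plus strand), the factor gene of the sterol arm. Capitals mark the letters CCAAT, to which the factor NF-Y binds, and the sterol element TCACNCCAC, a binding sequence of SREBP proteins, on either strand.
STARD4: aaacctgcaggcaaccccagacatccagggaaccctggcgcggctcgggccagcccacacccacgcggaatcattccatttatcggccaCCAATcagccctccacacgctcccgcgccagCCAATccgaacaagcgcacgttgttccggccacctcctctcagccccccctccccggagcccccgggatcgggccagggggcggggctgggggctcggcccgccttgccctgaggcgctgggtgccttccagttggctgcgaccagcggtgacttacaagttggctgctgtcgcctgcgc
NPC1: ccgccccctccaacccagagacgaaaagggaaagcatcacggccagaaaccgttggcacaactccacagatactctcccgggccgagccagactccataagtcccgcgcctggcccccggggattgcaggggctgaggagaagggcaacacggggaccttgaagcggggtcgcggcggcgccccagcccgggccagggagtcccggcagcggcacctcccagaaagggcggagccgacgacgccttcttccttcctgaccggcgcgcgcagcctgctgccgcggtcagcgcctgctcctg
SCD: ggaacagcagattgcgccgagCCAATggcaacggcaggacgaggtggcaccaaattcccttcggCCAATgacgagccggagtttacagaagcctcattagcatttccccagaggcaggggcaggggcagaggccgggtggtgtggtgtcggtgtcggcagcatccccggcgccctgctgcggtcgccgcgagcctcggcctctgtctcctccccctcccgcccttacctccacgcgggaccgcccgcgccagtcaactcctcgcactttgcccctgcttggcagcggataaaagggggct
SREBF2: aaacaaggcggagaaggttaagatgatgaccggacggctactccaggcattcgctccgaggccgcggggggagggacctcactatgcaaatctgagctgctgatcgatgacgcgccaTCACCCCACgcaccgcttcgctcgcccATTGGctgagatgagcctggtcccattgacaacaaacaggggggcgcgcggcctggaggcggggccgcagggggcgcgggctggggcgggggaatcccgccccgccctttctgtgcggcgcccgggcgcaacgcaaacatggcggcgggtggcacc

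A window was found for 28 of the 33 listed genes (38 windows in all), and none for ABCG1, ACAT2, FASN, FDFT1 and SQLE. CCAAT stood in 23 of these 38 windows (60.53%), against 34.61% of all 35116 windows in the table, and the windows of 19 members held it. The sterol element was in 1 of 38 windows, that of SREBF2, where it lay at -133 to -125 from the start, against 1.13% of all windows. GGGCGG, the GC box bound by SP factors, was in 34 of the 38 windows and in 44.95% of all windows, and the E-box CACGTG was in 6 of the 38 and in 7.26% of all. These motifs were searched on both strands, and GC boxes could overlap each other. Several windows can belong to 1 gene, so the shares are a description. A match is not a site in use, and the absence of these letters covers only this window.

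**Figure D1:**
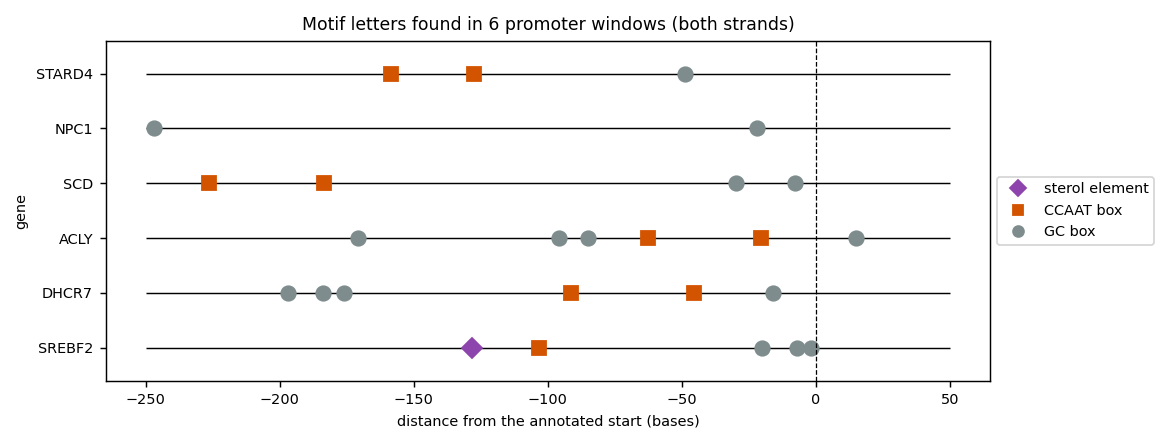
Motif letters in the promoter windows of 6 members, by distance in bases from the annotated start (dashed line, first window of each gene). STARD4, SCD, ACLY and DHCR7 each hold 2 CCAAT boxes, SREBF2 holds 1 beside the single sterol element, and NPC1 holds GC boxes alone.

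In the deposited log2 table (base taken as 2, which is not stated) every probe set has a median of 0 over the 9 arrays, so a value of 0.5 means 0.5 above that probe set's own median and levels cannot be compared between genes. The rounding left by the centring shows that 46 of the 72 probe sets lay at 8 or more on the log2 scale on every array, against 26.68% of all probe sets. As a check of the labels, the probe set 212764_at of ZEB1, a repressor and known target of miR-200c, had a log2 difference of -1.57 (SE 0.07, limma adjusted p = 1.08e-06) between mimic and scrambled control, and 201131_s_at of CDH1, which ZEB1 represses, one of 3.26 (SE 0.12, adjusted p = 5.29e-07). The other ZEB1 probe sets were at -1.59 (210875_s_at), -0.65 (212758_s_at) and -0.17 (239952_at), and the last did not pass (adjusted p = 0.4185). The other CDH1 probe set, 201130_s_at, was at 0.58 (adjusted p = 0.000884). Of 7 measured epithelial and endometrial marker genes, 5 had a probe set at 8 or more on every array (KRT8, KRT18, KRT7, EPCAM and PAX8), while 0 of 5 leukocyte, 0 of 3 endothelial and 0 of 4 adipocyte markers did, and of hepatocyte and fibroblast markers SERPINA1 and COL1A1 did. Signal over background is not known here, so a low class does not show that a gene was undetected. An array of a whole culture cannot tell a smaller number of expressing cells from less RNA per cell. Over the members, scrambled control replicate 2 lay farthest from its group (SD of its difference from the mean of the other 2 arrays 0.221, against 0.0906 to 0.16 for the other 8 arrays).

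Changes were small. The fit (limma on all 54613 probe sets that are not controls, group means over the 9 arrays, Benjamini-Hochberg adjustment over all of them, called at an adjusted p under 0.05) called 22 of the 72 probe sets, from 16 of the 30 genes, in at least 1 of the 3 comparisons, and 0 members differed by 1 or more on the log2 scale. That is 30.6% of the member probe sets, beside 16.3% of all, and at a level of 8 or more on every array 43.5% of 46 members beside 29.9% of all. Mimic and scrambled control share dose, time and the act of adding a small RNA. There 6 member probe sets rose, 2 fell and 64 did not pass, where 4.52% and 4.15% of all probe sets rose and fell. That is 8.33% of the members higher and 2.78% lower, with a median log2 difference of 0.05 over the members and -0.01 over all probe sets. At a level of 8 or more on every array, 10.87% of 46 members rose and 4.35% fell, beside 7.69% and 8.24% of all. The risers were EBP on 2 probe sets, STARD4, ABCA1, ACLY and ACACA, and NPC1 and SCD fell. Without mimic replicate 1 the fit called 3 higher, and without scrambled control replicate 1 or 2 it called 1 lower. Averaging all probe sets of a gene ended the calls of EBP, NPC1, ABCA1, ACACA and SCD and added SCAP as lower. Averaging those of the highest level class ended EBP, ACACA and SCD and added LSS and SCAP as lower and SC5D as higher. The values of SCAP, LSS and SC5D behind these added calls each come from 1 probe set. Its log2 difference is unchanged, and 19775 genes were tested in place of 54613 probe sets.

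The labels name no small RNA for mock, so mimic against mock joins the effect of the mimic with that of any small RNA. It called 5 member probe sets higher and 15 lower, where 5.07% of all probe sets rose and 6.98% fell. Among members the shares were 6.94% higher and 20.83% lower. Among probe sets at 8 or more on every array 30.43% of 46 members fell, against 13.57% of all. The 10 genes that fell on at least 1 probe set were SQLE, LSS, MSMO1, DHCR7, SCAP, SREBF2, NPC1, ACLY, FASN and SCD, and the 5 that rose were EBP, SC5D, INSIG1, STARD4 and ACACA. The members' median log2 difference was -0.01, against 0.01 over all probe sets. Averaging all probe sets of a gene ended the calls of SQLE, LSS, EBP, SC5D and INSIG1, and brought the log2 differences of NPC1, FASN and ACACA to -0.20, -0.25 and 0.19 with their calls kept (adjusted p = 0.0114, 0.0409 and 0.00739).

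Scrambled control against mock sets a small RNA without the miR-200c sequence against none. It called 2 member probe sets higher, of INSIG1 and ACACA, and 6 lower, of DHCR7, ABCA1, ACLY (2 probe sets), FASN and SCD. Over all probe sets 1.23% rose and 2.84% fell, beside 2.78% and 8.33% of the members, and the members' median log2 difference was -0.08 against 0.01. At a level of 8 or more 2.17% of 46 members rose and 13.04% fell, beside 2.47% and 5.98% of all. With only probe sets at that level tested, more members passed as lower. They were SQLE 209218_at, MSMO1, EBP 213787_s_at, SREBF1 202308_at, NPC1 202679_at and ACLY 201128_s_at (adjusted p = 0.0175, 0.02985, 0.0123, 0.0336, 0.02275 and 0.02005). SCD 200831_s_at, 200832_s_at and 211708_s_at also did (0.0095, 0.0158 and 0.0171), and SC5D 211423_s_at passed as higher (0.0356). Averaging all probe sets of a gene ended the calls of INSIG1, ACACA, ABCA1 (-0.13, adjusted p = 0.23) and FASN (-0.16, adjusted p = 0.208) and added LSS as lower (-0.34, adjusted p = 0.046). The LSS mean includes 211019_s_at, where scrambled control replicate 2 alone stood at -1.22. Without scrambled control replicate 2 the counts were 1 and 4. Leaving out scrambled control replicate 1, mock replicate 1 or mock replicate 2 ended both higher calls, and 2, 3 and 2 lower calls were left. Without mimic replicate 3, which enters only through the shared spread, 3 lower calls were left. The comparisons share arrays, so a probe set high in mock counts in both that use mock. The ACTB control probe sets moved with mock: their 3' minus 5' value averaged 0.02 ± 0.08 in mimic, 0.10 ± 0.04 in scrambled control and -0.18 ± 0.03 in mock arrays, and that of GAPDH -0.02 ± 0.03, 0.01 ± 0.02 and 0.03 ± 0.04 (SD, n = 3 each). The part of RNA integrity or labelling in the differences from mock was not tested.

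**Figure D2:**
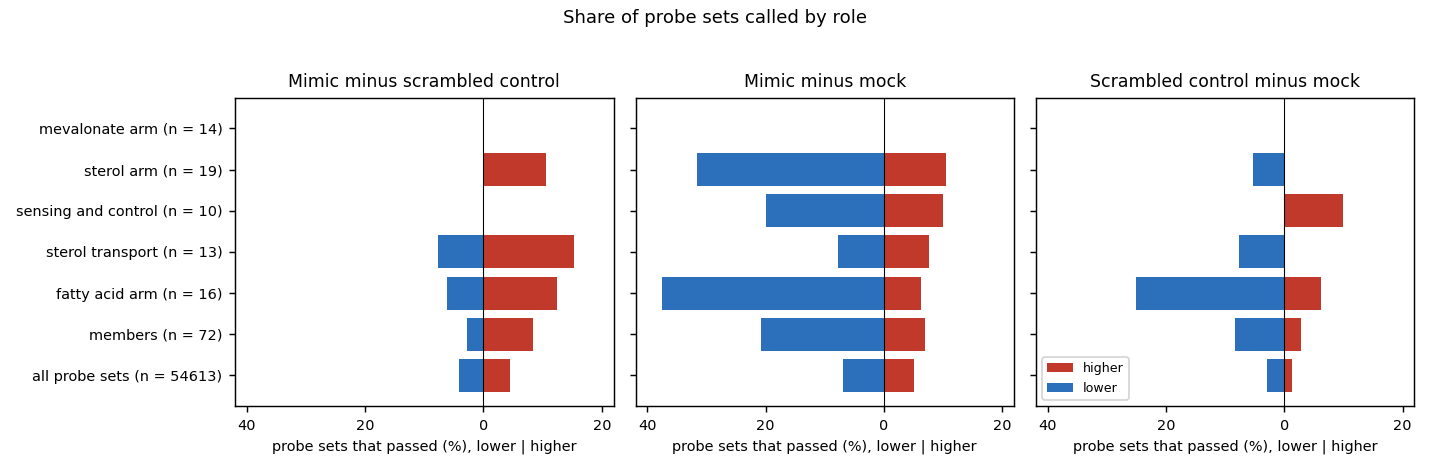
Share of probe sets called higher (right, red) and lower (left, blue) in each role, among all 72 members and among all 54613 probe sets tested, for the 3 comparisons. The fatty acid arm holds the longest bar to the left against mock (37.5% of 16 for the mimic, 25% for scrambled control), and the mevalonate arm holds no bar.

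In the mevalonate arm no probe set passed in any comparison of the fit to all probe sets. By limma's unadjusted p under 0.05, of its 14 probe sets 3 were higher and 0 lower with the mimic than with scrambled control, 0 and 0 differed between mimic and mock, and 0 were higher and 1 lower with scrambled control than in mock. Of all 54613 probe sets, 5657 were higher and 5885 lower by that measure between mimic and scrambled control. Between mimic and mock these were 6410 and 7091, and between scrambled control and mock 5017 and 5599. HMGCS1, the synthase that commits acetyl-CoA units to the pathway, had 2 probe sets with log2 differences of 0.23 and 0.19 between mimic and scrambled control (adjusted p = 0.11 and 0.13). With only probe sets at 8 or more on every array tested, both passed as higher, as did MVK 204056_s_at (adjusted p = 0.0313, 0.0353 and 0.0491), and 205822_s_at also passed without mimic replicate 3 (0.30, adjusted p = 0.043). The kinase genes MVK and PMVK, the isomerase gene IDI1, the farnesyl diphosphate synthase gene FDPS and the thiolase gene ACAT2 stayed within -0.09 to 0.19 in that comparison. The decarboxylase gene MVD was at 0.14, -0.25 and 0.00 with the mimic, -0.15, -0.30 and 0.00 with scrambled control and 0.08, 0.21 and 0.23 in mock. Its scrambled control arrays all lay below mock (log2 difference -0.33, SE 0.10), which did not pass (adjusted p = 0.113).

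The sterol arm split. With the mimic, against mock, probe sets of 4 genes fell, SQLE, LSS, MSMO1 and DHCR7, and those of EBP and SC5D rose. Of its 19 probe sets 6 fell (31.58%) and 2 rose (10.53%), beside 6.98% and 5.07% of all probe sets. Many probe sets of the arm lay at 8 or more on every array, where 13.57% of all fell and 8.32% rose. Of the arm, EBP alone passed against scrambled control in the fit to all probe sets. There 10.53% of the arm rose and 0 fell, beside 4.52% and 4.15% of all and 7.69% and 8.24% of all at 8 or more. With only probe sets at 8 or more on every array tested, LSS 202245_at and MSMO1 also fell and SC5D 211423_s_at rose (adjusted p = 0.0145, 0.0296 and 0.0109). EBP, the isomerase that shifts the double bond of the sterol ring, had 2 passing probe sets. On 213787_s_at it lay at 0.19, 0.20 and 0.04 with the mimic, -0.24, -0.23 and -0.14 with scrambled control and 0.00, -0.0032 and 0.03 in mock. The mimic was 1.27-fold above scrambled control (log2 difference 0.35, SE 0.06, adjusted p = 0.00414). Against mock neither the mimic (0.14, adjusted p = 0.179) nor scrambled control (-0.21, adjusted p = 0.0769) passed in the fit to all probe sets. On 202735_at the order differed. Mimic arrays stood at 0.30, 0.17 and 0.24, scrambled control at -0.03, 0.08 and -0.04 and mock at -0.04, -0.05 and 0.00, so the mimic alone was high (0.23 against scrambled control and 0.27 against mock, adjusted p = 0.0308 and 0.0122). The call on 202735_at against scrambled control ended without any one of mimic replicates 1 and 3, scrambled control replicates 1 and 3 and mock replicate 2 (adjusted p at most 0.103). The other 2 EBP probe sets, 213789_at and 231320_at, had differences of -0.13 and 0.07 and did not pass, and on 213789_at scrambled control replicate 2 stood alone at 0.45.

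SC5D, a desaturase of the late ring steps, rose on 211423_s_at against mock. Its arrays were at 0.18, 0.17 and 0.11 with the mimic, -0.08, 0.00 and 0.03 with scrambled control and -0.16, -0.14 and -0.15 in mock, an order with no overlap between neighbours. The difference from mock was 0.31 (SE 0.05, adjusted p = 0.0034), and that from scrambled control 0.17 (adjusted p = 0.075). Its second probe set 215064_at had the opposite sign against mock and did not pass (-0.27, adjusted p = 0.135). DHCR7, a reductase of the last steps to cholesterol, was lower with the mimic than in mock on both its probe sets. On 201790_s_at the values were 0.01, -0.04 and -0.11 with the mimic, -0.03, -0.02 and 0.00 with scrambled control and 0.26, 0.29 and 0.27 in mock. Both small RNA groups lay below mock, with log2 differences of -0.32 for the mimic and -0.29 for scrambled control (SE 0.05 each, adjusted p = 0.00236 and 0.014), and mimic and scrambled control differed by -0.03 (adjusted p = 0.798). The scrambled control call ended without scrambled control replicate 1 or mock replicate 2 (adjusted p at most 0.0618). On 201791_s_at the mimic was -0.18 from mock (adjusted p = 0.0352), a call that ended without any single mimic or mock replicate and without scrambled control replicate 1 (at most 0.0974).

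Squalene is oxidised by SQLE, a control point of the arm, and closed to lanosterol by LSS. SQLE fell against mock on 2 of its 4 probe sets. On 209218_at mimic arrays were at -0.0048, -0.19 and -0.11, scrambled control at 0.00, 0.07 and -0.10 and mock at 0.26, 0.19 and 0.19, with all mock arrays above the other 6. The mimic differed from mock by -0.31 (SE 0.07, adjusted p = 0.0112) and scrambled control by -0.22 (adjusted p = 0.09). On 213562_s_at the mimic was at 0.00, -0.19 and -0.14, scrambled control at -0.02, 0.15 and -0.08 and mock at 0.14, 0.20 and 0.18, and its difference of -0.29 (adjusted p = 0.0285) ended without mimic replicate 2 or 3 or any mock replicate (at most 0.101). The probe sets 213577_at and 1557352_at did not pass (-0.11 and 0.04). LSS on 202245_at stepped down with no overlap, at -0.13, -0.19 and -0.14 with the mimic, 0.01, 0.00 and -0.04 with scrambled control and 0.10, 0.08 and 0.10 in mock. Its difference from mock was -0.25 (SE 0.05, adjusted p = 0.00781) and from scrambled control -0.14 (adjusted p = 0.107). MSMO1, the oxidase that removes methyl groups from the ring, had the same order: -0.16, -0.10 and -0.11 with the mimic, -0.03, 0.01 and 0.00 with scrambled control and 0.11, 0.14 and 0.11 in mock on 209146_at. Its difference from mock was -0.25 (SE 0.05, adjusted p = 0.00722), and it kept its call under all 17 alternatives.

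A second LSS probe set, 211019_s_at, had the largest SE of any member. Mimic arrays were at 0.00, 0.00 and -0.15, scrambled control arrays at -0.10, -1.22 and 0.00 and mock arrays at 0.36, 0.51 and 0.55. All mock arrays lay above the rest, but scrambled control replicate 2 alone reached -1.22, and the differences of -0.52 for mimic and -0.92 for scrambled control from mock did not pass (SE 0.25 each, adjusted p = 0.23 and 0.0711). Without that array both passed, at -0.52 and -0.53 (limma adjusted p = 0.00159 and 0.0162). The third, 211018_at, was at -0.07 for mimic and -0.0012 for scrambled control against mock and did not pass. NSDHL and HSD17B7, which finish the demethylation with MSMO1, had differences between -0.09 and 0.13 in all 3 comparisons and did not pass.

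**Figure D3:**
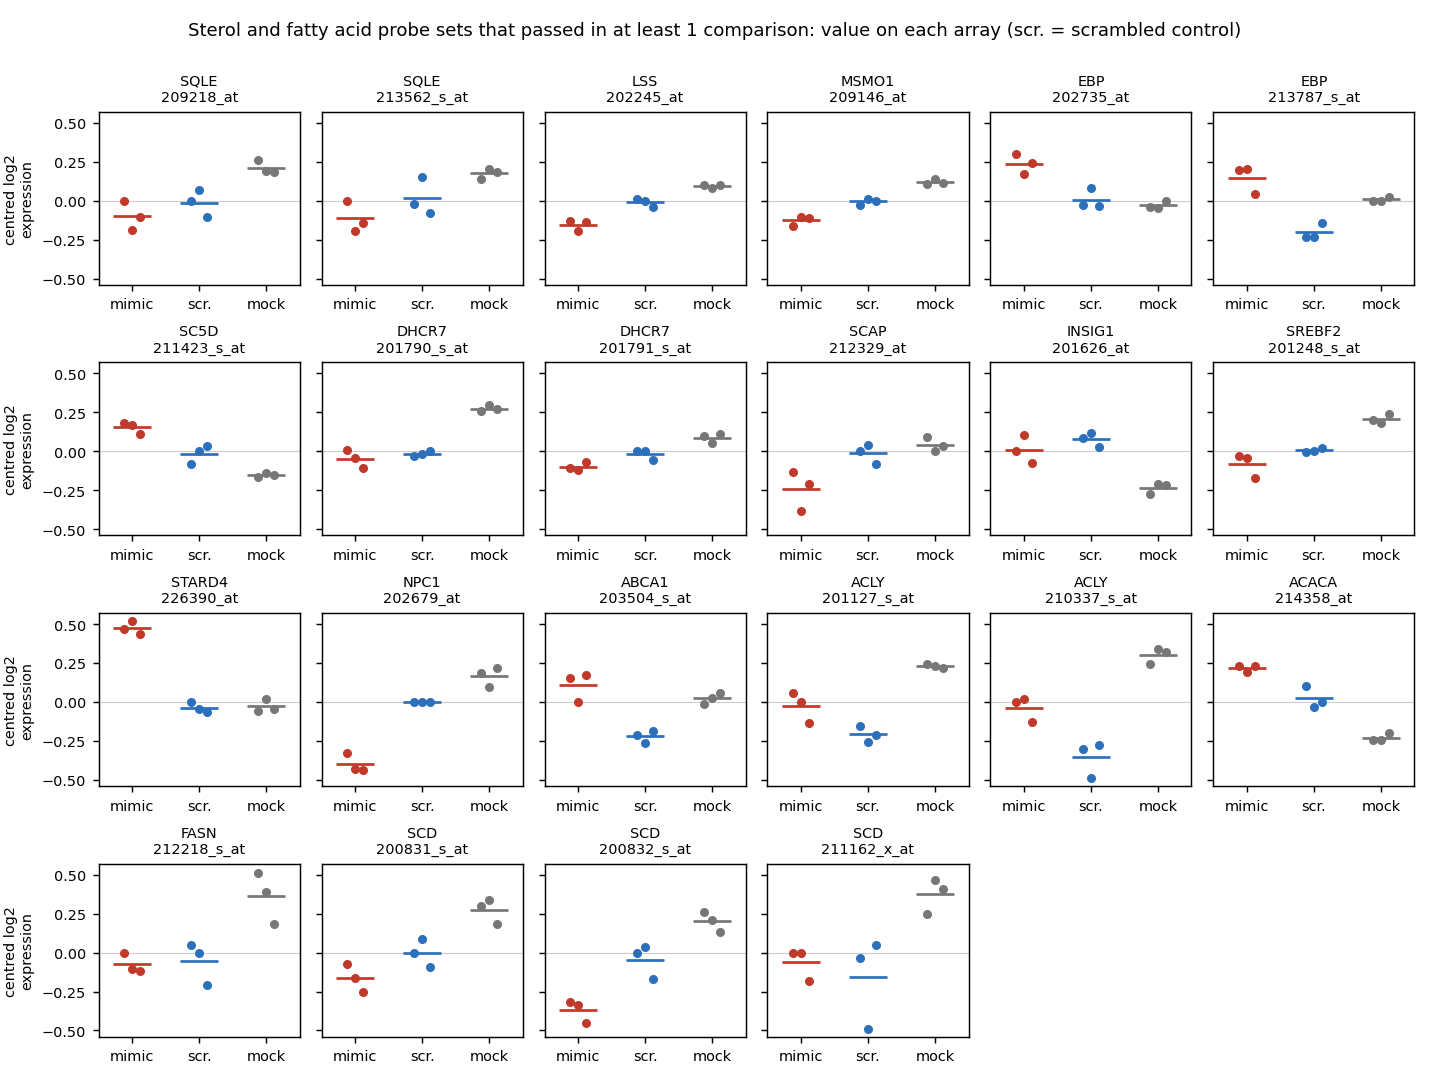
Centred log2 expression of the 22 member probe sets that passed in at least 1 comparison, on each of the 3 mimic (red), 3 scrambled control (blue) and 3 mock (grey) arrays. Bars are group means. STARD4 mimic arrays at 0.44 to 0.52 stand clear of the other 6, while the mock arrays of DHCR7 201790_s_at, at 0.26 to 0.29, stand clear of both small RNA groups.

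Among the genes that sense sterols, none passed between mimic and scrambled control in the fit to all probe sets (0 of 10 probe sets by limma). At limma's unadjusted p under 0.05, 0 were higher and 1 lower, beside 5657 and 5885 of all 54613. The 1 lower member was SCAP, the escort of SREBP proteins, at -0.13, -0.38 and -0.21 with the mimic, 0.0028, 0.04 and -0.08 with scrambled control and 0.09, 0.00 and 0.03 in mock. All mimic arrays lay below the other 6, with log2 differences of -0.23 from scrambled control (SE 0.07, adjusted p = 0.0743) and -0.28 from mock (adjusted p = 0.0239). The difference from scrambled control passed with either gene summary and among probe sets at 8 or more (adjusted p = 0.0372, 0.0389 and 0.0176). SCAP has 1 probe set, so these are the same log2 difference among fewer tests and not separate support. The call against mock ended without mimic replicate 2 or 3 or any mock replicate (adjusted p at most 0.0866). SREBF2, whose protein drives mainly sterol genes, fell against mock on 201248_s_at, with -0.03, -0.04 and -0.17 for the mimic, -0.0035, 0.00 and 0.02 for scrambled control and 0.20, 0.18 and 0.24 for mock. Its difference was -0.29 (SE 0.05, adjusted p = 0.00613), with scrambled control on the same side (-0.20, adjusted p = 0.067). The call ended in the gene value from its highest level class, which leaves 201248_s_at out (-0.10, adjusted p = 0.2759). The mean of all SREBF2 probe sets passed as lower (-0.16, adjusted p = 0.0339). Of the other SREBF2 probe sets, 201247_at was at -0.28 (adjusted p = 0.0506) and 242748_at at 0.08 (adjusted p = 0.413) against mock. The first passed as lower among probe sets at 8 or more and at 4 or more (adjusted p = 0.0135 and 0.0426). It also passed with only the 2 groups compared (0.0323).

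SREBF1, whose protein drives mainly fatty acid genes, did not pass in the fit to all probe sets. On 202308_at its log2 differences from mock were -0.22 for mimic and -0.27 for scrambled control (SE 0.09 each, adjusted p = 0.14 and 0.12). With only probe sets at 8 or more tested, that of scrambled control passed as lower (adjusted p = 0.0336). INSIG1, the retention protein whose own gene is an SREBP target, had 3 probe sets that differed. On 201626_at it was at 0.00, 0.10 and -0.08 with the mimic, 0.09, 0.12 and 0.03 with scrambled control and -0.27, -0.21 and -0.22 in mock, so both small RNA groups rose above mock (0.24 and 0.31, SE 0.06 each, adjusted p = 0.0229 and 0.0193). The mimic call ended without mimic replicate 2 or any mock replicate, and the scrambled control call without scrambled control replicate 1 or 2 or mock replicate 1 or 2 (adjusted p at most 0.0821 and 0.0728). On 201625_s_at and 201627_s_at the mimic differed from mock by 0.02 and -0.14, which did not pass in the fit to all probe sets. With only probe sets at 8 or more tested, 201627_s_at passed as lower (adjusted p = 0.0386), the direction opposite to 201626_at. INSIG2 had 1 probe set, within 0.02 to 0.07 in all 3 comparisons.

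Among the transport genes STARD4, and NPC1 on 1 of its 4 probe sets, changed with the mimic against both other groups. STARD4, which ferries cholesterol between membranes through the cytosol, was at 0.47, 0.52 and 0.44 with the mimic, 0.00, -0.04 and -0.06 with scrambled control and -0.06, 0.02 and -0.05 in mock. The mimic arrays stood above the other 6, which overlapped. It was 1.42-fold higher than with scrambled control (log2 difference 0.51, SE 0.05, adjusted p = 0.00016) and 1.42-fold higher than in mock (0.50, adjusted p = 0.000167), while scrambled control and mock differed by -0.01 (adjusted p = 0.956). Both calls held under all 17 alternatives. NPC1, the late endosomal protein that lets cholesterol out of lysosomes, went the other way on 202679_at. Its arrays were at -0.33, -0.43 and -0.44 with the mimic, 0.00, 0.00 and 0.0013 with scrambled control and 0.19, 0.10 and 0.22 in mock, 3 groups with no overlap. It was 1.32-fold lower than with scrambled control (log2 difference -0.40, SE 0.06, adjusted p = 0.0012) and 1.48-fold lower than in mock (-0.57, adjusted p = 0.000122).

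The scrambled control values of that NPC1 probe set hold 2 exact zeros, and such ties can lower the estimated spread. More than 1 of the 9 values was exactly 0 in 27 of the 72 member probe sets and in 48.89% of all. The other 3 NPC1 probe sets (217584_at, 238568_s_at and 238873_at), none with every array at 8 or more, had differences of -0.03, -0.10 and -0.04 between mimic and scrambled control and did not pass. Against scrambled control, the mean of all 4 was at -0.14 and did not pass (adjusted p = 0.0644). Against mock, the mean of all 4 kept the gene's call at a smaller difference of -0.20 (adjusted p = 0.0114).

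ABCA1, the pump that hands cholesterol to apolipoprotein A-I, was lowest with scrambled control. On 203504_s_at mimic arrays were at 0.15, 0.00 and 0.17, scrambled control at -0.21, -0.26 and -0.19 and mock at -0.01, 0.02 and 0.06. The mimic was 0.33 above scrambled control (SE 0.06, adjusted p = 0.006) and 0.09 from mock (adjusted p = 0.436), with scrambled control -0.24 from mock (adjusted p = 0.0493). The last of these calls ended in 12 of 17 alternatives, among them without any one of the scrambled control and mock replicates and without mimic replicate 1 or 3 (adjusted p at most 0.132). A second ABCA1 probe set, 203505_at, had the same order and did not pass (0.26 between mimic and scrambled control, adjusted p = 0.0816), and the remaining 2 were at 0.12 and 0.09. ABCG1, a pump to high-density lipoprotein, did not pass on any of 4 probe sets, with differences of -0.08 to 0.22 in that comparison.

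In the fatty acid arm 6 of 16 probe sets fell and 1 rose with the mimic against mock, and 4 fell and 1 rose with scrambled control. Those are 37.5% and 25% lower, beside 6.98% and 2.84% of all probe sets, and 6.25% higher in each, beside 5.07% and 1.23%. Many probe sets of the arm lay at 8 or more on every array, where 13.57% and 5.98% of all fell. The lower probe sets came from 3 of the arm's 6 genes in each comparison, and those of 1 gene are not independent. ACLY, which makes cytosolic acetyl-CoA from citrate, was lower in both small RNA groups than in mock, and lowest with scrambled control. On 210337_s_at mimic arrays were at 0.00, 0.02 and -0.13, scrambled control at -0.30, -0.49 and -0.28 and mock at 0.24, 0.34 and 0.32, 3 groups with no overlap. Scrambled control was 1.58-fold below mock (log2 difference -0.66, SE 0.07, adjusted p = 0.00169), and the mimic was -0.34 from mock (adjusted p = 0.0102) and 0.32 above scrambled control (adjusted p = 0.0168). The last call ended without mimic replicate 1 or 2 or scrambled control replicate 2 (adjusted p at most 0.0631). The probe set 201127_s_at repeated the order, at 0.06, 0.00 and -0.13 with the mimic, -0.15, -0.25 and -0.21 with scrambled control and 0.24, 0.23 and 0.22 in mock. There the mimic and scrambled control differed from mock by -0.26 and -0.44 (adjusted p = 0.0187 and 0.00479), the first of which ended without mimic replicate 3 or mock replicate 1 or 2 (at most 0.0668). On 201128_s_at the mimic and mock overlapped (0.01) and scrambled control was at -0.20 from mock (adjusted p = 0.104).

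FASN, which builds palmitate, fell against mock in both small RNA groups on 212218_s_at. The arrays were at 0.00, -0.11 and -0.12 with the mimic, 0.05, 0.00 and -0.21 with scrambled control and 0.51, 0.39 and 0.18 in mock, where the mock arrays themselves spread widely. The differences from mock were -0.44 for the mimic and -0.42 for scrambled control (SE 0.09 each, adjusted p = 0.0116 and 0.0353), and mimic and scrambled control differed by -0.02 (adjusted p = 0.937). The scrambled control call ended without any one of its own replicates, without mock replicate 1 or 2 and without mimic replicate 2 or 3 (adjusted p at most 0.115). The second FASN probe set, 217006_x_at, did not pass (-0.06 for the mimic against mock).

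SCD, the desaturase that makes oleate from stearate, was lower with the mimic than in mock on all 4 probe sets, of which 3 passed. On 200832_s_at mimic arrays were at -0.32, -0.34 and -0.45, scrambled control at 0.00, 0.04 and -0.17 and mock at 0.26, 0.21 and 0.13, and the 3 groups did not overlap. The mimic was 1.48-fold below mock (log2 difference -0.57, SE 0.07, adjusted p = 0.000504) and 1.25-fold below scrambled control (-0.32, adjusted p = 0.0152). The second of these ended without mimic replicate 3 or scrambled control replicate 1 or 2 and after quantile normalization (adjusted p at most 0.0617). Of the other probe sets, 200831_s_at differed by -0.16 between mimic and scrambled control, and 211162_x_at and 211708_s_at had the opposite sign (0.10 and 0.05), and none of the 3 passed. The mean of all 4 differed by -0.08 (adjusted p = 0.516) between mimic and scrambled control, by -0.48 (adjusted p = 0.000802) between mimic and mock and by -0.40 (adjusted p = 0.00874) between scrambled control and mock. On 200831_s_at the values were -0.08, -0.16 and -0.25 with the mimic, 0.00, 0.09 and -0.09 with scrambled control and 0.30, 0.33 and 0.18 in mock. The mimic fell against mock (-0.44, SE 0.07, adjusted p = 0.00247), and scrambled control lay on the same side (-0.27, adjusted p = 0.0559). That scrambled control difference passed after quantile normalization and among probe sets at 8 or more and at 4 or more (adjusted p = 0.04993, 0.0095 and 0.0453). It also passed with the replicate block and with array weights (0.0474 and 0.0196). On 211162_x_at, a probe set design that can bind related transcripts, the values were 0.00, 0.00 and -0.18 with the mimic, -0.04, -0.49 and 0.05 with scrambled control and 0.25, 0.46 and 0.41 in mock. There scrambled control replicate 2 lay far below its group, and the calls against mock (-0.44 for mimic and -0.53 for scrambled control, adjusted p = 0.0467 and 0.0428) ended without any single mimic or mock replicate or scrambled control replicate 1. Without scrambled control replicate 2 the scrambled control difference was -0.37 and did not pass. On 211708_s_at mimic and scrambled control were at -0.49 and -0.55 from mock (adjusted p = 0.052 and 0.065). Without scrambled control replicate 2 or 3 the mimic passed (adjusted p = 0.0193 and 0.0394), and without replicate 2 scrambled control did not (-0.39, adjusted p = 0.157). The mimic difference also passed after quantile normalization and among probe sets at 8 or more and at 4 or more (adjusted p = 0.0418, 0.0177 and 0.04609). It passed too with only the 2 groups compared and with array weights (0.033 and 0.0185). The scrambled control difference passed after quantile normalization, at 8 or more and with array weights (0.04605, 0.0171 and 0.0426).

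ACACA, the carboxylase that makes malonyl-CoA, rose against mock on 1 of its 2 probe sets, where ACLY, FASN and SCD fell. On 214358_at the arrays were at 0.23, 0.20 and 0.23 with the mimic, 0.10, -0.03 and 0.00 with scrambled control and -0.25, -0.24 and -0.20 in mock, an order with no overlap. The mimic was 1.37-fold above mock (log2 difference 0.45, SE 0.05, adjusted p = 0.000384), and scrambled control was 0.25 above it (adjusted p = 0.0273). The mimic was 0.20 above scrambled control (adjusted p = 0.0439), a call that ended in 14 of 16 alternatives, among them without any one of the mimic or mock replicates and without scrambled control replicate 2 or 3 (at most 0.139). The scrambled control call against mock ended without scrambled control replicate 1 or 3 or any mock replicate (at most 0.0964). The other probe set, 212186_at, with every array at 8 or more, was at 0.00, -0.0003 and -0.05 with the mimic, -0.02, 0.01 and -0.08 with scrambled control and 0.08, 0.06 and 0.0049 in mock and did not pass (-0.06). ELOVL6, which lengthens palmitate, and FADS2, a desaturase of polyunsaturated fatty acids, did not pass. The closest was ELOVL6 204256_at, with a difference of 0.20 between mimic and mock (adjusted p = 0.0568), which passed among probe sets at 8 or more and at 4 or more (adjusted p = 0.0105 and 0.0444).

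**Figure D4:**
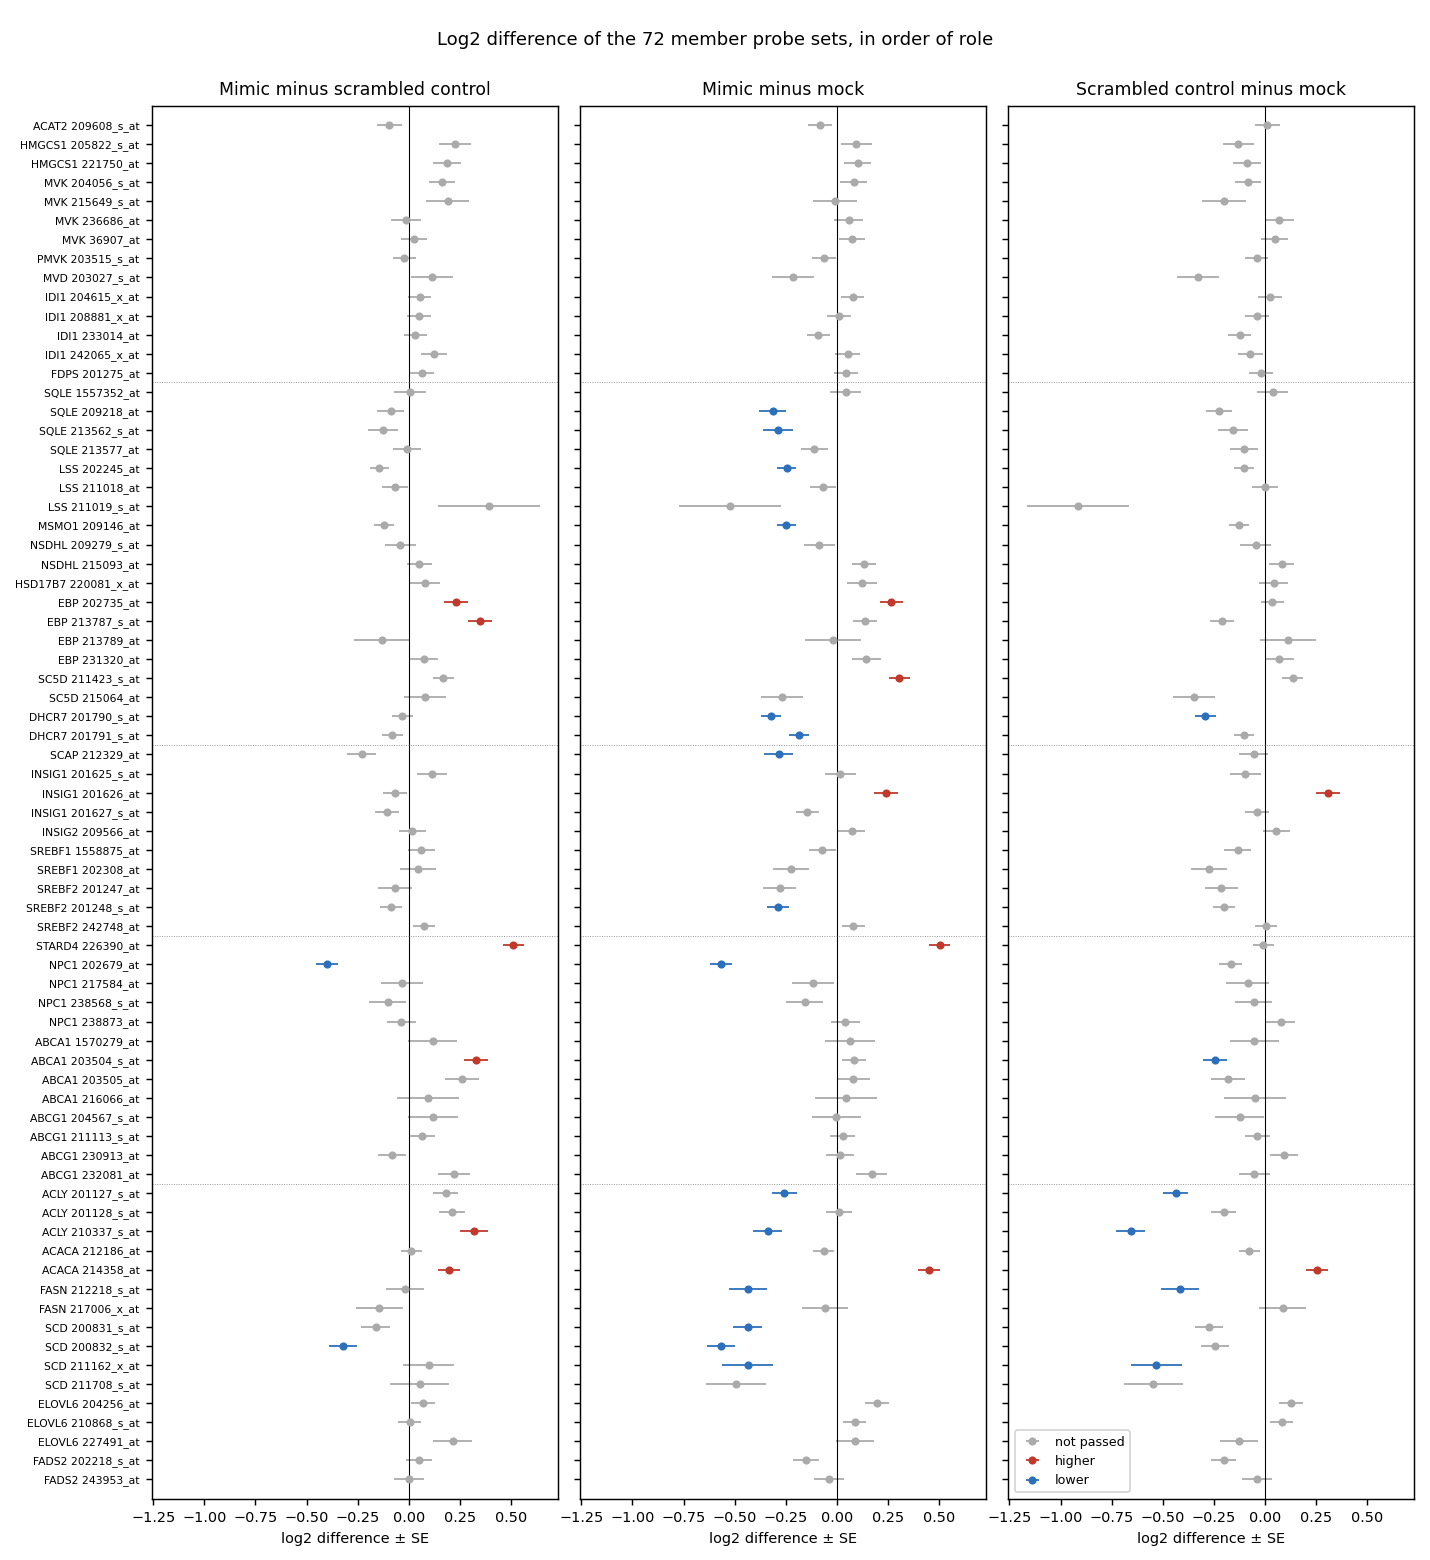
Log2 difference with its SE for all 72 member probe sets in the 3 comparisons, ordered by role from the mevalonate arm (top) to the fatty acid arm (bottom), with dotted lines between roles. Red and blue points passed as higher and lower. STARD4 and NPC1 202679_at lie farthest out for mimic minus scrambled control, at 0.51 and -0.40, and ACLY 210337_s_at at -0.66 is the farthest that passed for scrambled control minus mock.

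The 13 members without a passing probe set in the fit to all probe sets and without a difference of 0.3 or more in size (HMGCS1, MVK, PMVK, IDI1, FDPS, ACAT2, NSDHL, HSD17B7, INSIG2, SREBF1, ELOVL6, FADS2 and ABCG1) had 28 probe sets. Their log2 differences ran from -0.09 to 0.23 between mimic and scrambled control, from -0.22 to 0.20 between mimic and mock and from -0.27 to 0.13 between scrambled control and mock, with a lowest adjusted p of 0.0568. A typical SE of a member was 0.07, and not passing does not show that a gene was unchanged. Leaving out 1 array added calls elsewhere too. Between mimic and scrambled control, SCAP (without mimic replicate 1, -0.28) and FASN 217006_x_at (without mimic replicate 3, -0.31) passed as lower and ACLY 201127_s_at (without mimic replicate 3, 0.23) and ELOVL6 227491_at (without scrambled control replicate 2, 0.32) as higher, by limma at adjusted p = 0.0459, 0.0243, 0.046 and 0.0351. Between mimic and mock, SREBF1 202308_at (without mimic replicate 1, -0.32) and SREBF2 201247_at (without scrambled control replicate 3, -0.28) passed as lower, at adjusted p = 0.0249 and 0.0197.

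Of 40 further sterol, isoprenoid and lipid genes, 34 had a probe set under the same rule, 86 in all. They were chosen with earlier results of these data known, so their shares below are a description only. Between mimic and scrambled control 6 of the 86 rose, 9 fell and 71 did not pass, which is 6.98% and 10.47%, beside 4.52% and 4.15% of all probe sets. Against mock the mimic had 4 higher and 11 lower (4.65% and 12.79%, beside 5.07% and 6.98%), and scrambled control had 2 higher and 6 lower (2.33% and 6.98%, beside 1.23% and 2.84%). The medians of the 3 comparisons were 0.01, 0.01 and -0.03 on the log2 scale. The 5 genes with the smallest p between mimic and scrambled control were ERLIN2, VLDLR, LBR, ME1 and ERLIN1. ERLIN1 and ERLIN2 encode endoplasmic reticulum membrane proteins that take part in sterol sensing and in degradation of membrane proteins. ERLIN2 on 221543_s_at was at 0.54, 0.51 and 0.46 with the mimic, -0.55, -0.68 and -0.60 with scrambled control and 0.00, -0.08 and 0.02 in mock. It was 2.17-fold higher with the mimic than with scrambled control (log2 difference 1.12, SE 0.06, adjusted p = 2.57e-06), where scrambled control itself lay -0.59 from mock (adjusted p = 0.00122) and the mimic 0.53 from mock (adjusted p = 0.000221). On 221542_s_at mimic and mock overlapped (0.19, adjusted p = 0.21), and scrambled control lay below both (0.95 for mimic minus scrambled control and -0.76 for scrambled control minus mock, adjusted p = 7.52e-05 and 0.00191). The ERLIN2 probe set 238615_at did not pass in any comparison. ERLIN1 on 202441_at was at 0.14, 0.04 and 0.09 with the mimic, -0.44, -0.37 and -0.39 with scrambled control and -0.0036, 0.00 and 0.10 in mock. Here the scrambled control arrays alone stood low (-0.43 from mock, adjusted p = 0.00323), and mimic and mock overlapped (0.06, adjusted p = 0.59).

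VLDLR, a lipoprotein receptor gene, was at -0.54, -0.70 and -0.75 with the mimic, 0.0008, -0.01 and 0.00 with scrambled control and 0.15, 0.17 and 0.14 in mock on 209822_s_at. It fell with the mimic, with log2 differences of -0.66 from scrambled control and -0.82 from mock (SE 0.06 each, adjusted p = 7.89e-05 and 2.15e-05). ME1, the malic enzyme that supplies NADPH to fatty acid synthesis, was at -0.50, -0.44 and -0.45 with the mimic, 0.20, 0.10 and 0.26 with scrambled control and 0.00, -0.01 and 0.21 in mock on 204058_at. The mimic arrays lay below the other 6, with log2 differences of -0.65 from scrambled control and -0.53 from mock (SE 0.07 each, adjusted p = 0.000253 and 0.00085). LBR, which has sterol reductase activity beside its role in the nuclear envelope, was at -0.27, -0.23 and -0.24 with the mimic, 0.18, 0.21 and 0.20 with scrambled control and -0.004, 0.00 and 0.00 in mock on 201795_at. It fell with the mimic against both (-0.44 and -0.24, adjusted p = 0.000198 and 0.00628) and rose with scrambled control against mock (0.20, adjusted p = 0.0428).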

How the data were processed

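Total RNA of the 9 samples (Trizol) was put on single-channel Affymetrix arrays with a biotin label, per the labels' protocols. The deposited values are log2 expression for 54675 probe sets. The authors' summary and normalization of the probes and the base of the logarithm are not given in the sources used here, and base 2 is assumed. The values were centred by probe set before deposit (the median of the 9 is 0 in all 54675), so levels are lost. A level class was recovered from the single precision step left in the values (all arrays at 8 or more, at 4 or more, or lower).

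Gene names came from the platform annotation of the probe table. After 62 control probe sets were left out, 41091 had 1 symbol, 1801 several and 11721 none. Group means were fitted with limma 3.58.1 in R 4.3.3 to all 54613 remaining probe sets and 9 arrays (two-sided, Benjamini-Hochberg over all, called under 0.05). The fit was tested on simulated data with known differences. Precision is limited by 3 arrays a group. Samples with the same replicate number did not deviate together (correlations from -0.24 to 0.15, against -0.22 to 0.36 for different numbers), so no block was used in the fit. The 17 alternatives covered gene summaries, quantile normalization, level filters, separate fits, a replicate block, array weights and leaving out each array.

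Members and lists were chosen with earlier results of these data known. Per-array values are given for members with a passing probe set in a comparison of the mimic or a difference of 0.3 or more in size, and for the 5 further genes with the smallest p. Probe sets shared between CYP51A1 or FADS1 and another gene were not analysed here.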

Additional observations from a re-analysis of the deposited data

How the results depend on the processing

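Counts of called members depended on the unit and on the level filter. Mimic against scrambled control gave 6 higher and 2 lower probe sets, with 2 and 1 genes when all probe sets of a gene were averaged, 12 and 5 probe sets among those at 8 or more on every array, where fewer were tested, 1 lower after quantile normalization, and 3 to 6 higher and 1 to 3 lower when single arrays were left out. Mimic against mock gave 5 higher and 15 lower, with 2 and 9 genes by the highest level class and 2 and 8 by the mean of all probe sets. Leaving out mimic replicate 3, mock replicate 1 or mock replicate 2 each ended several of these lower calls. They were SQLE 213562_s_at, DHCR7 201791_s_at, SCAP, ACLY 201127_s_at and SCD 211162_x_at. Scrambled control against mock gave 2 higher and 6 lower. The higher calls became 0 by either gene summary (limma, 2 and 0 at an unadjusted p under 0.05), 1 with only the 2 groups compared, 1 with the replicate block and 0 to 2 when single arrays were left out (2 to 4 at an unadjusted p under 0.05 where 0). The lower calls became 15 at a level of 8 or more, 3 with only the 2 groups compared, 11 with array weights and 2 to 4 when single arrays were left out. The replicate block moved the other counts to 4 and 2, 5 and 12, and 5 lower, and the numbers do not pair the samples. By the highest level class ACACA, which then rests on its other probe set, was at -0.0642 for mimic against mock and -0.0774 for scrambled control against mock, the reverse of 214358_at. The cause of the other shifts was not tested. The share of all probe sets called under each alternative was not taken, and a level filter changes how many are tested. Counts under the alternatives therefore describe the members alone and are not set against all probe sets. The number of arrays and unknown signal over background limit what small differences can show.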
